A study of Mus musculus with 12 samples.

Results

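Binding of the nuclear zinc-finger protein ZFAT was set against acetylated histone H3 in thymocytes of Zfatf/f mice, whose Zfat gene is floxed but carries no Cre. The members were all 1719 ZFAT peaks of the floxed ZFAT library, out of 21883 peaks in the 7 lists of the series, and each was placed relative to the 13016 H3K9ac/K27ac peaks of the floxed acetylation library. Every member was used, and no member was chosen by its score. Thymocytes came from thymuses of mice aged 4 to 5 weeks and were fixed with formaldehyde, digested with micrococcal nuclease and sonicated before precipitation. Each ChIP was 1 library without a replicate, and the sources used here do not say whether both came from 1 preparation of cells or pooled animals. The same measures were taken in ZFAT peaks of C57BL/6 (B6) thymocytes, with an unmodified Zfat gene, and in the lists of Zfatf/f-LckCre thymocytes. In the latter, Cre driven by Lck removes the floxed sequence from T lineage cells, and the extent of removal was not measured in the lists. Gene positions in mm9 were not used here, so peaks are named by position and the thymocyte markers were not checked.

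ZFAT carries zinc fingers and an AT-hook, binds DNA in the nucleus and is required for the normal development of thymocytes. Acetylation of histone H3 at lysine 9 and lysine 27 is added by acetyltransferases, marks the nucleosomes of active promoters and enhancers, and is read by proteins with bromodomains. A protein bound to DNA often occupies the linker beside marked nucleosomes, whereas an acetylation ChIP recovers the nucleosomes themselves, so the distance between summits is a measure of how both signals are arranged. Distances here run from the ZFAT summit to the nearest acetylation summit and are positive where the acetylation summit has the higher coordinate. Peaks have no strand, so the sign gives a side of the chromosome and no direction of transcription.

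Most ZFAT peaks rested on few fragments. The height of a summit, in fragments, was inferred from the deposited fold and P score (−log10 p) and had a median of 9 in ZFAT peaks and 38 in acetylation peaks, at 1508150 and 2190830 inferred ChIP fragments per library. Of the 1719 ZFAT peaks, 23 stood at the ceiling of the P score, where the height is not known, and 971 had 10 fragments or fewer. Intervals below are exact Clopper-Pearson 95% intervals, which cover counting error only. With 1 library per group, every difference is one between these libraries, and no p-value is given.

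ZFAT summits coincided with acetylation summits far more often than shifted summits did, and the larger number of them lay many kb away. Within 150 bp of an acetylation summit lay 341 of the 1719 ZFAT summits (19.8%, 95% interval 17.98% to 21.8%), and 603 (35.1%, 32.8% to 37.4%) lay more than 100 kb away. When the ZFAT list was moved along each chromosome by steps of 1 twentieth of the chromosome's span, the 19 shifted lists placed a mean of 2.47 summits within 150 bp (range 0 to 7) and 1100.4 beyond 100 kb (range 1056 to 1154). The observed counts lay outside both ranges, on the near side.

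The nearness was steepest at the summit itself. Of the near group, 273 ZFAT summits (15.9%, 14.2% to 17.7%) were within 50 bp of an acetylation summit, against a shifted mean of 0.684 and a highest value of 2. Counts then dropped to 48 at 51 to 100 bp and 20 at 101 to 150 bp. They were 27 at 151 to 200 bp and 26 at 201 to 250 bp, before 14 at 251 to 300 bp. The step from 20 to 27 is within counting error, since 20 of 1719 has an interval of 0.712% to 1.79% and 27 of 1719 one of 1.04% to 2.28%. A second group of distances about 1 nucleosome from the summit was therefore not resolved in the whole list.

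**Figure D1:**
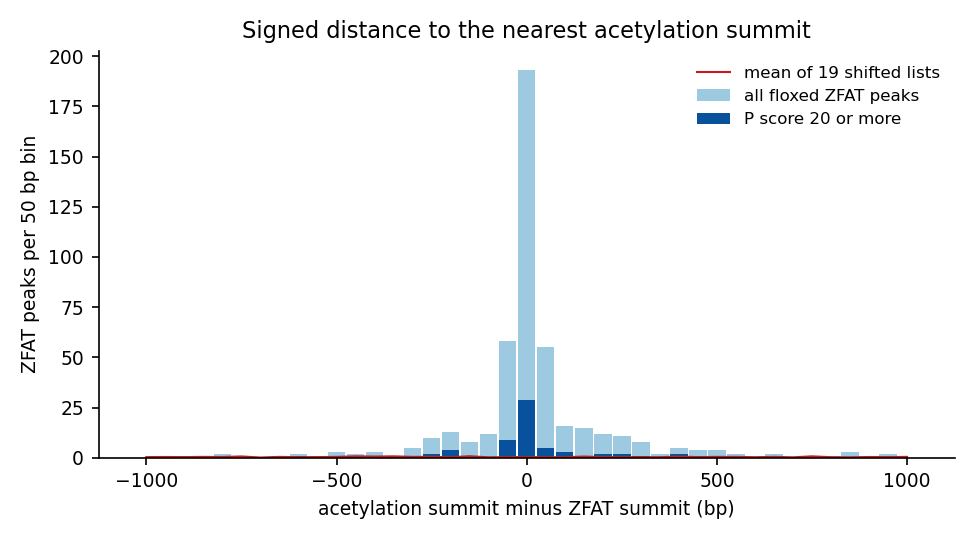
ZFAT peaks per 50 bp bin (vertical axis) by signed distance to the nearest acetylation summit in bp (horizontal axis). Pale bars are all floxed ZFAT peaks, dark bars those scoring 20 or more, and the red line is the mean of 19 shifted lists. The bin centred on 0 holds 193 peaks, of which 29 score 20 or more, and the shifted mean there is 0.368.

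No side of the ZFAT summit was favoured beyond counting error. Of 452 ZFAT summits within 1 kb and not at distance 0, the acetylation summit had the higher coordinate in 240 (53.1%, 48.4% to 57.8%) and the lower in 212, and another 7 had the same base as summit. The median signed distance of all 459 summits within 1 kb was 3 bp, and the median absolute distance was 35 bp. At 151 to 500 bp the split was 52 higher and 42 lower (55.3%, 44.7% to 65.6%). The intervals all include equal sides.

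Beyond 1 kb the raw counts lay within the ranges of shifted lists, except for an excess at 20 to 50 kb and the deficit over 100 kb. Fewer summits were left for these classes than in shifted lists, so like counts do not mean like placement. Of the floxed summits beyond 1 kb, 657 lay at 1 to 100 kb and 603 farther. Shifted lists had a mean of 618.6 within 100 kb, including those within 1 kb, and 1100.4 farther. From 1 to 5 kb there were 46 ZFAT summits, within the shifted range of 42 to 84. From 5 to 10 kb there were 78, against a shifted mean of 61.3 and a range of 52 to 81, and from 50 to 100 kb 201, within the range of 157 to 223. At 20 to 50 kb the 231 summits lay above the shifted range of 166 to 215. Within 1 kb, 459 summits (26.7%, 24.6% to 28.9%) stood against a shifted mean of 17.4 and a highest value of 28, so most of the excess was there. The median distance over the whole list was 39284 bp, with quartiles of 459.5 and 184370 bp, and shifted medians ran from 182349 to 268908 bp.

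A local form of shift kept the neighbourhood of each peak. Moving the ZFAT list by 10 to 50 kb to either side, in steps of 10 kb, left a mean of 5.40 summits within 150 bp (range 1 to 11), and 341 is 63.1 times that mean. The same lists placed a mean of 596.3 summits beyond 100 kb (range 587 to 602), against 603 observed. At 1 to 5, 5 to 10 and 10 to 20 kb they held ranges of 110 to 140, 103 to 294 and 163 to 351. The observed counts there were lower, at 46, 78 and 101. A summit moved off acetylation by 10 to 50 kb lies about that far from it at most, so nearby classes gain summits by the move itself. The near excess therefore remained under the local shift, and the deficit beyond 100 kb did not, since a short move leaves a peak in its own surroundings. The values just inside and just outside each limit were 139 and 154 bp for the 150 bp limit, 964 and 1056 bp for 1 kb, and 99375 and 100787 bp for 100 kb.

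Strong ZFAT peaks were nearer to acetylation than weak ones. Within 150 bp of an acetylation summit were 176 of 1038 peaks (17.0%, 14.7% to 19.4%) with a P score under 10 and 119 of 567 (21.0%, 17.7% to 24.6%) from 10 to 20. From 20 upward it was 46 of 114 (40.4%, 31.3% to 49.9%). The median distance fell across these classes from 49840 to 36500 and then to 269.5 bp. The class of 20 or more has an interval that does not overlap those of the weaker classes, whose own intervals overlap.

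The trend was not even among the strong peaks. Within 150 bp lay 28 of 63 peaks (44.4%, 31.9% to 57.5%) with scores of 20 to 50, 7 of 28 (25%, 10.7% to 44.9%) with higher scores below the ceiling, and 11 of 23 (47.8%, 26.8% to 69.4%) at the ceiling. In the middle class 8 of the 28 peaks had an inferred control background of 20 fragments or more, against 2 of 63 in the class below it. Backgrounds at the ceiling are not known. Without peaks at such a background, the share for scores of 20 or more was 46 of 104 (44.2%, 34.5% to 54.3%).

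None of the 23 ceiling peaks was more than 100 kb from acetylation, which allows a share of up to 14.8%, and 21 of them had an acetylation summit within 1 kb. Their summits were not all on top of it. Of these 21, 9 were within 50 bp (42.9%, 21.8% to 66.0%) and 8 were 151 to 500 bp away (38.1%, 18.1% to 61.6%). Among peaks under a score of 10 with acetylation within 1 kb, the same shares were 53.6% (128 of 239, 47.0% to 60.0%) and 21.8% (52 of 239, 16.7% to 27.5%). Both pairs of intervals overlap, so an offset particular to the strongest peaks was not detectable with 21 peaks. For all floxed peaks scoring 20 or more, counts at 101 to 150, 151 to 200 and 201 to 250 bp were 1, 5 and 4. B6 ZFAT peaks called against input had 0, 6 and 4 at such scores, and floxed peaks under 10 had 16, 15 and 18. The counts of strong peaks are small, and an offset in them was not tested.

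**Figure D2:**
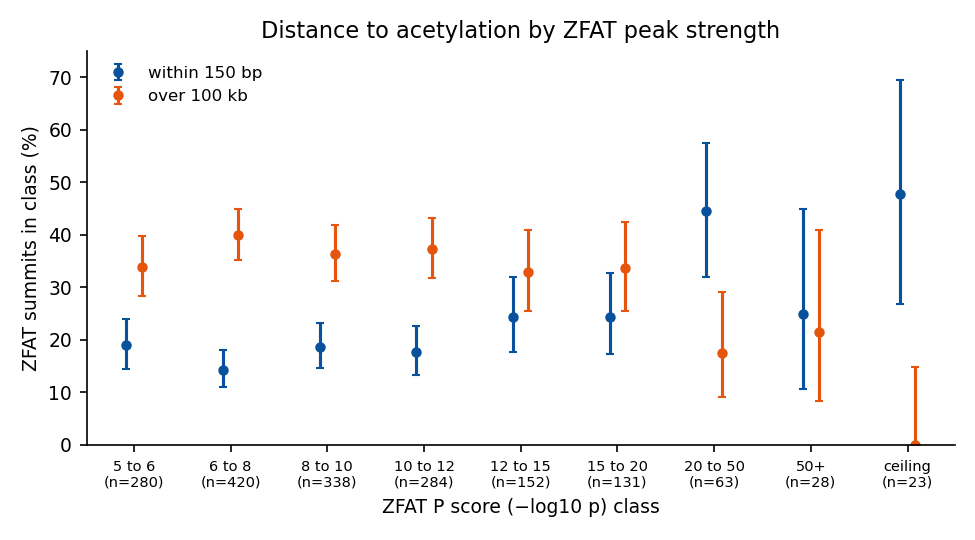
Share of floxed ZFAT summits within 150 bp of an acetylation summit (blue) and over 100 kb from one (orange), in percent (vertical axis), by class of ZFAT P score (horizontal axis, n below each class). Bars are exact 95% intervals for counting error. The share within 150 bp is 14.3% to 24.4% in the classes below 20 and 47.8% at the ceiling, where 0 of 23 peaks are over 100 kb away.

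ZFAT peaks on an acetylation summit were taller and wider than distant ones, but hardly stronger by fold. Within 50 bp the median inferred height was 14 fragments (quartiles 11 and 18), the median length 202 bp and the median fold 5.93. Beyond 100 kb these were 6 fragments (quartiles 4 and 10), 166 bp and 5.35. The control background moved with distance too. Its median was 1.63 scaled fragments within 50 bp and 0.121 beyond 100 kb, and it stood at the lowest level of the list in 4.03% of the former and 53.4% of the latter. The fold, as read here, adds a fragment to both height and background, which lowers it most where the background is low. Near-equal folds are therefore not near-equal plain ratios of height to background. A peak over a higher background needs more fragments to reach the same P score, and the part of this background in the nearness of the summits was not tested.

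Acetylation peaks at ZFAT summits were among the stronger of their list. The median acetylation height was 50 fragments and the median acetylation P score 36.9 at ZFAT summits within 50 bp, against 38 and 25.9 over all 13016 acetylation peaks. Seen from the acetylation list, 341 summits (2.62%) had a ZFAT summit within 150 bp. The share was 13 of 1302 (0.998%, 0.533% to 1.70%) in the lowest decile of acetylation P score and 62 of 1302 (4.76%, 3.67% to 6.06%) in the highest, and only the step from the fourth to the fifth decile went down (29 and then 28 peaks).

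The heights of both signals were only loosely related where they coincided. Across 264 ZFAT summits within 50 bp of acetylation and below the P ceiling, Spearman's rho between ZFAT and acetylation height was 0.282, and that between the folds was 0.00923. The inferred control backgrounds of the paired peaks, which share position and mappability, had a rho of 0.352. At 5 to 100 kb, where the pair shares no site, rho was -0.0686 for height over 609 pairs. The ZFAT height was a median of 0.291 of the acetylation height within 50 bp (quartiles 0.209 and 0.436) and exceeded it at 12 of the 264 sites. These are descriptions over sites of 1 pair of libraries.

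Another ZFAT library also had summits on acetylation, in a lower share over the whole list called against input. Of 2000 B6 ZFAT summits called against input, 305 (15.3%, 13.7% to 16.9%) were within 150 bp of a floxed acetylation summit, against a shifted mean of 3.47 and a highest value of 7, and 20.2% (18.5% to 22.0%) were within 1 kb. Both shares lie below the floxed ones, 19.8% and 26.7%, with intervals that do not overlap. Of 427 B6 summits called against IgG, 102 (23.9%, 19.9% to 28.2%) were. At P scores of 20 or more the B6 shares were 37 of 99 (37.4%, 27.9% to 47.7%) against input and 26 of 57 (45.6%, 32.4% to 59.3%) against IgG, beside 40.4% in the floxed list. Among summits within 1 kb, 59.5% of floxed ZFAT (54.8% to 64.0%) and 59.7% of B6 ZFAT against input (54.7% to 64.5%) were within 50 bp. The B6 lists share a ChIP library, and the acetylation came from floxed and not B6 cells. That library had an inferred 632460 ChIP fragments, against 1508150 in the floxed one, and the part of depth in these shares was not tested.

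Other lists show how close summits come for a like and an unlike mark. Lck-Cre H3K9ac/K27ac summits, the same mark in the other line, were within 150 bp of a floxed acetylation summit in 1304 of 2225 cases (58.6%, 56.5% to 60.7%). Of those within 1 kb, 65.1% (62.8% to 67.4%) were within 50 bp, a somewhat higher share than for floxed ZFAT, with intervals that overlap. At P scores of 20 or more it was 83.7% (75.1% to 90.2%) for Lck-Cre acetylation and 57.1% (44.7% to 68.9%) for floxed ZFAT, and those intervals do not overlap. H3K9me3, a mark of silenced chromatin, had 93 of 2388 summits within 150 bp (3.89%, 3.15% to 4.75%), against a shifted mean of 4.53, and 70.6% beyond 100 kb. Its few near summits were as close as those of the other lists, since 74.1% (65.0% to 81.9%) of the 112 within 1 kb were within 50 bp, above the interval of floxed ZFAT. The ZFAT list thus lay between the acetylated and the silenced mark in its share of near summits.

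**Figure D3:**
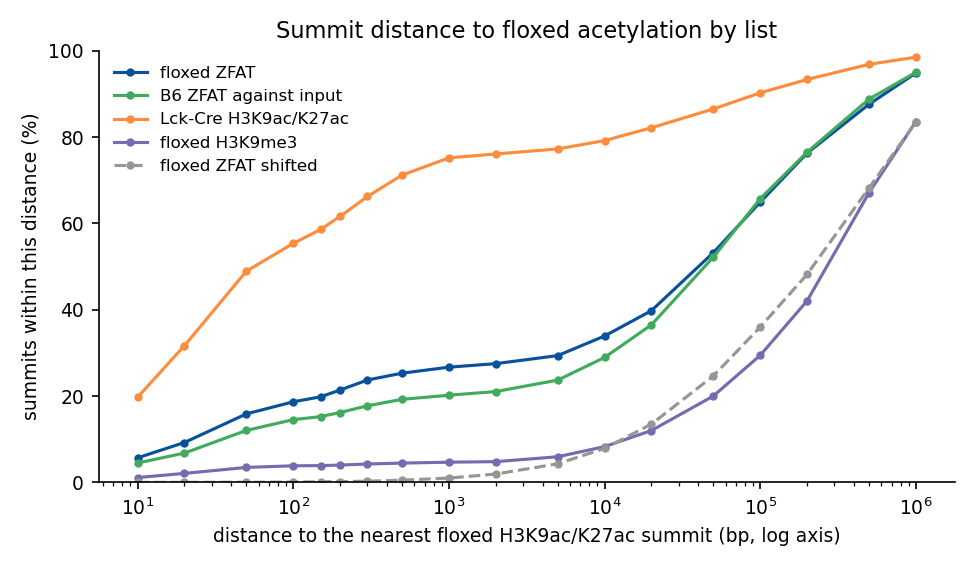
Share of summits within a given distance of the nearest floxed H3K9ac/K27ac summit, in percent (vertical axis), against distance in bp on a log axis. Lines are floxed ZFAT, B6 ZFAT called against input, Lck-Cre H3K9ac/K27ac, floxed H3K9me3 and, dashed, the mean of 19 shifted floxed ZFAT lists. The ZFAT lines are nearly flat from 1 kb to 5 kb, at 26.7% to 29.4% in the floxed list.

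The Lck-Cre lists are shorter and held fewer such meetings by count. Against the 2225 Lck-Cre acetylation peaks, 69 of 1719 floxed ZFAT summits (4.01%, 3.14% to 5.05%) were within 150 bp, with a shifted mean of 0.263. The shorter acetylation list lowers this share. Of 108 Lck-Cre ZFAT summits, 13 (12.04%, 6.57% to 19.7%) were within 150 bp of a floxed acetylation summit, an interval that overlaps that of the floxed list. Of its 31 peaks scoring 20 or more, 11 (35.5%, 19.2% to 54.6%) were within 150 bp, beside 40.4% in floxed cells, with overlapping intervals. A known control background of 20 or more was found for 10 of the 108 Lck-Cre ZFAT peaks, against 12 of the 1719 floxed ones. The Lck-Cre share without such peaks was not taken. Among the 66 Lck-Cre ZFAT peaks with scores under 10, 1 was within 150 bp (1.52%, 0.0384% to 8.16%), against 17.0% of floxed ZFAT peaks in the same score class. The intervals for the weak peaks of both lists do not overlap. The Lck-Cre ZFAT library had an inferred 1350050 ChIP fragments, against 1508150 in the floxed one.

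Recurrence in B6 differed with both the strength and the place of the floxed ZFAT peak. Overlap with a B6 peak called against input was found for 8.26% of all floxed ZFAT peaks. It was 46 of 273 (16.8%, 12.6% to 21.8%) within 50 bp of an acetylation summit, 25 of 94 (26.6%, 18.01% to 36.7%) at 151 to 500 bp and 25 of 603 (4.15%, 2.70% to 6.06%) beyond 100 kb. Near peaks recurred more often than distant ones. The B6 ZFAT library was the shallower one, at an inferred 632460 fragments against 1508150, and the part of depth in recurrence was not tested.

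Within score classes the order was kept only in part. For P scores under 10, recurrence was 7 of 128 (5.47%, 2.23% to 10.9%) within 50 bp, 2 of 52 (3.85%, 0.469% to 13.2%) at 151 to 500 bp and 11 of 386 (2.85%, 1.43% to 5.04%) beyond 100 kb, with overlapping intervals. For P scores of 10 to 20, recurrence was 10 of 105 (9.52%, 4.66% to 16.8%) within 50 bp, 4 of 14 (28.6%, 8.39% to 58.1%) at 51 to 150 bp and 6 of 23 (26.1%, 10.2% to 48.4%) at 151 to 500 bp. It was 4 of 201 (1.99%, 0.545% to 5.02%) at 5 to 100 kb and 5 of 200 (2.50%, 0.817% to 5.74%) beyond. Peaks at 151 to 500 bp and those beyond 100 kb differ by more than their intervals, whereas those within 50 bp overlap the far class narrowly. For scores of 20 or more, recurrence was 29 of 40 (72.5%, 56.1% to 85.4%) within 50 bp, 17 of 19 (89.5%, 66.9% to 98.7%) at 151 to 500 bp and 9 of 17 (52.9%, 27.8% to 77.0%) beyond 100 kb, all with overlapping intervals. Of those 17 far peaks, 6 had a control background of 20 or more.

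**Figure D4:**
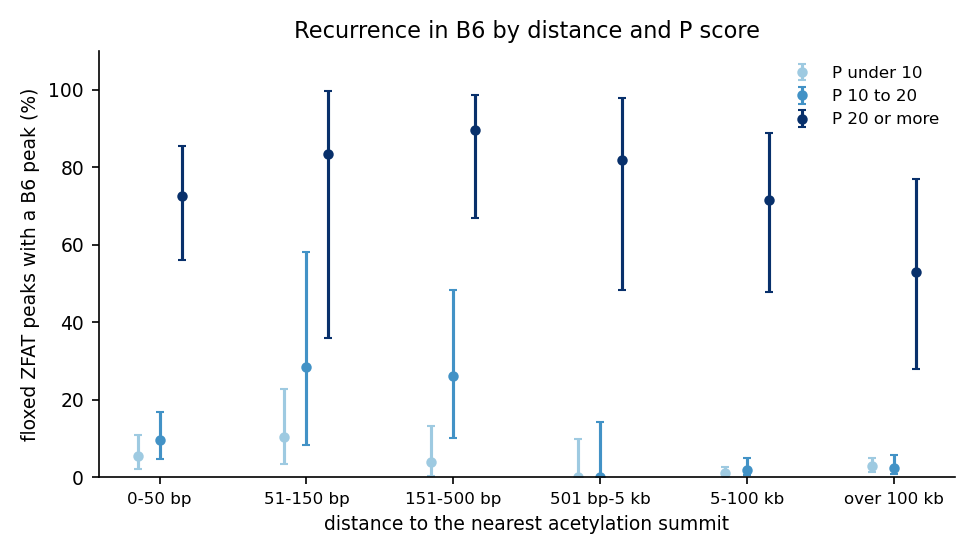
Share of floxed ZFAT peaks overlapped by a B6 ZFAT peak called against input, in percent (vertical axis), by distance to the nearest acetylation summit (horizontal axis) and by floxed P score (shade). Bars are exact 95% intervals for counting error. At a P score of 20 or more the share is 52.9% to 89.5% in every distance class, and under 10 it is at most 10.4%.

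The IgG-called B6 list separated near from far more sharply. It overlapped 5.29% of all floxed ZFAT peaks, 35 of 273 (12.8%, 9.09% to 17.4%) within 50 bp and 2 of 603 (0.332%, 0.0402% to 1.19%) beyond 100 kb. For scores of 20 or more it was 27 of 40 (67.5%, 50.9% to 81.4%) within 50 bp and 1 of 17 (5.88%, 0.149% to 28.7%) beyond 100 kb. There the list against input had 9, and 6 of the 17 had a control background of 20 or more. For scores of 10 to 20 it was 6 of 105 and 0 of 200, and under 10 it was 2 of 128 and 1 of 386, where the intervals overlap. Peaks far from acetylation had a B6 peak mostly in the list called against input, which holds 2000 peaks against 427 in the IgG-called list.

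Lck-Cre ZFAT peaks overlapped 1.8% of the floxed list. The count was 9 of 273 (3.30%, 1.52% to 6.17%) within 50 bp and 8 of 94 (8.51%, 3.75% to 16.1%) at 151 to 500 bp. It was 8 of 611 (1.31%, 0.567% to 2.56%) at 5 to 100 kb and 3 of 603 (0.498%, 0.103% to 1.45%) beyond 100 kb. In the classes up to 500 bp all 19 overlapped peaks scored 20 or more, and over the whole list 30 of 31 did. At such scores the overlap was 9 of 40 (22.5%) within 50 bp and 8 of 19 (42.1%) at 151 to 500 bp. It was 7 of 21 (33.3%) at 5 to 100 kb and 3 of 17 (17.6%) beyond 100 kb, with overlapping intervals. The difference between near and far peaks was therefore not resolved within that score class. Over all scores, overlap with H3K9me3 rose from near to far peaks. It was 4.48% over all members, 1 of 273 (0.366%, 0.00927% to 2.02%) within 50 bp and 51 of 603 (8.46%, 6.36% to 10.97%) beyond 100 kb. The classes were set by distance to acetylation, and 70.6% of H3K9me3 summits themselves lay beyond 100 kb from it. A higher overlap in the far class thus follows in part from how the classes were set. An Lck-Cre acetylation peak overlapped 5% of all members and 43 of the 273 (15.8%, 11.6% to 20.6%) within 50 bp. The 273 were picked by nearness to floxed acetylation, where 58.6% of Lck-Cre acetylation summits lay within 150 bp. A share above that of all members follows from this choice.

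ZFAT was next placed inside acetylated domains, made by joining acetylation peaks with at most 5 kb between them. There were 2030 domains of 2 or more peaks, which held 4911 acetylation peaks and had a median length of 1589.5 bp, and 8105 peaks stood alone. A ZFAT summit lay in a domain in 125 cases (7.27%, 6.09% to 8.60%), against a shifted mean of 3.47. A further 312 (18.2%, 16.4% to 20.1%) lay on an acetylation peak that stood alone, against a shifted mean of 2.05, and 1282 lay on neither. By count most meetings were on lone peaks, which are more numerous, whereas 5.91% of domains and 3.84% of lone peaks held a ZFAT summit.

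Inside domains ZFAT summits sat on acetylation peaks and not in the gaps. Of the 125, 122 (97.6%, 93.1% to 99.5%) lay on an acetylation peak, although peaks made up 36.5% of the length of these domains, and 25.8% of shifted in-domain summits lay on one. The remaining 3 lay between peaks, within the shifted range of 0 to 7. Where acetylation summits stood within 1 kb on both sides, at 43 ZFAT summits with a median spacing of 688 bp, 30 were within 50 bp of one of the pair. Only 1 of the 43 (2.33%) lay in the middle 33.3% of the interval, so the midpoint between neighbouring acetylation summits was not a usual place for ZFAT.

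On the acetylation peak, ZFAT followed the summit more than the edges. A position can be given as the distance to the nearer edge divided by the peak length, from 0 at an edge to 0.5 at the centre. The median for 434 ZFAT summits on any acetylation peak was 0.314, beside 0.344 for the acetylation summits of the same peaks and 0.208 for 56 shifted summits that fell on a peak. A position under 0.1, at the very edge, was found for 19 of the 434 (4.38%), against 25% of the 56.

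Within a domain ZFAT showed little preference for the strongest peak. Of the 122 summits on a peak, 74 (60.7%, 51.4% to 69.4%) were on the peak with the highest acetylation P score of its domain. An even choice among peaks would give 44.9%, and a choice by peak length 54.8%. The interval excludes the first and includes the second. In domains of exactly 2 peaks it was 61 of 89 (68.5%, 57.8% to 78.0%), where a choice by length gives 60.0%, and in larger domains 13 of 33 (39.4%, 22.9% to 57.9%), where it gives 40.9%.

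Domains of 2 or 3 peaks held ZFAT more often than lone peaks did, but less ZFAT per acetylation peak. A ZFAT summit was found on 311 of 8105 lone peaks (3.84%, 3.43% to 4.28%), in 87 of 1532 domains of 2 peaks (5.68%, 4.57% to 6.96%), in 24 of 314 of 3 peaks (7.64%, 4.96% to 11.2%), in 7 of 108 of 4 peaks (6.48%, 2.65% to 12.9%) and in 2 of 76 with 5 or more (2.63%, 0.320% to 9.18%). Counted per 100 acetylation peaks, ZFAT summits went from 3.85 on lone peaks to 2.94, 2.65, 1.85 and 0.423 in these classes. Of all domains and lone peaks, 425 held 1 ZFAT summit and 6 held 2, and none held more.

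Of the domains and lone peaks with 2 ZFAT summits, the one with most acetylation peaks was at chromosome 17, 45692635 to 45701495, with 4 acetylation peaks. Its ZFAT folds were 4.24 on a peak and 8.17 between peaks. At chromosome 4, 154518006 to 154525238, the domain had 3 acetylation peaks and ZFAT folds of 5.51 at both summits. At chromosome 7, 20092477 to 20094316, the ZFAT summits were 6 and 4 bp from their acetylation summits, with folds of 6.18 and 10.2. Domains at chromosome 19, 29879560 to 29880992, and chromosome 1, 182780747 to 182781461, had ZFAT folds of 7.81 and 4.77, and of 7.74 and 7.14. None of these 10 ZFAT peaks overlapped a B6 peak called against input or an Lck-Cre ZFAT peak, beside 8.26% and 1.8% of all floxed ZFAT peaks. With shares that low, the lack of overlap among 10 peaks does not set these domains apart. The highest inferred height among the 10 was 37 fragments.

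On the scale of 1 Mb, ZFAT and acetylation were dense in the same windows. Over 2543 windows wholly within the span of both lists, Spearman's rho of the counts was 0.44 and Pearson's r 0.494, and the 19 shifted lists gave rho from -0.0676 to 0.0773. Windows share mappability, base composition and gene density, so no p is given. The mean number of ZFAT summits was 0.269 ± 0.581 (SD, n = 841 windows) where no acetylation was called and 0.478 ± 0.749 (n = 843) at 1 to 4 acetylation summits. It was 0.836 ± 0.948 (n = 456) at 5 to 9, 1.36 ± 1.15 (n = 263) at 10 to 19, and 2.26 ± 1.92 (n = 140) at 20 or more. ZFAT rose less than acetylation, from 21.0 summits per 100 acetylation summits in windows with 1 to 4 of them down to 7.25 in the densest.

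The relation did not rest only on ZFAT summits at acetylation. Without those within 1 kb of an acetylation summit, rho was 0.315 over the same windows, with shifted values of -0.0517 to 0.0632. Without those within 5 kb it was 0.296. The far summits rose from a mean of 0.269 per window without acetylation to 1.30 in the densest class. So ZFAT peaks away from acetylation summits were also denser where acetylation was dense. Peaks with a P score under 10 alone gave a rho of 0.356.

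**Figure D5:**
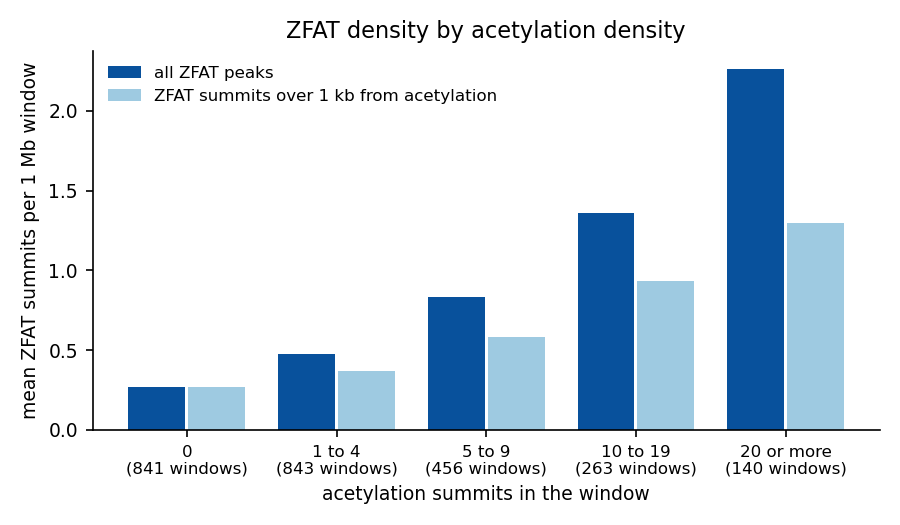
Mean number of floxed ZFAT summits per 1 Mb window (vertical axis, from 0) by the number of floxed acetylation summits in the window (horizontal axis, number of windows below each class). Dark bars are all ZFAT peaks and pale bars those over 1 kb from an acetylation summit. All peaks run from 0.269 to 2.26 and the pale bars from 0.269 to 1.30.

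Other lists had their own values on this scale. B6 ZFAT called against input had a rho of 0.469 with floxed acetylation, and Lck-Cre acetylation 0.682. For H3K9me3 it was -0.0322, and for the 108 Lck-Cre ZFAT peaks 0.0622, beside 0.172 for the 114 floxed ZFAT peaks scoring 20 or more. These ZFAT sets are alike in number and not in score, since 31 of the 108 Lck-Cre peaks scored 20 or more and 66 under 10. The floxed rho was positive on all 20 chromosomes, from 0.152 on the X chromosome to 0.634 on chromosome 11, with a median of 0.432.

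Chromosomes also differed in the share of near ZFAT summits. It was highest on chromosome 19, with 19 of 52 within 150 bp (36.5%, 23.6% to 51.04%), and on chromosome 11, with 38 of 114 (33.3%, 24.8% to 42.8%). It was lowest on the X chromosome, with 6 of 56 (10.7%, 4.03% to 21.9%), and on chromosome 3, with 8 of 64 (95% interval 5.55% to 23.2%). The intervals of chromosomes 19 and X do not overlap, and these were picked as the extremes of 20. The raw number of acetylation peaks did not follow the same order, with 1240 on chromosome 11, 518 on chromosome 3, 483 on chromosome 19 and 236 on the X chromosome. These counts are not densities, since the 1 Mb windows numbered 117, 154, 57 and 161 on these chromosomes. Per window, chromosomes 11 and 19 held more acetylation peaks than chromosomes 3 and X. The median ZFAT distance was 414223 bp on the X chromosome and 10147 bp on chromosome 19.

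The window with most ZFAT summits was chromosome 7, 134000000 to 134999999, with 10 ZFAT and 48 acetylation summits, of which 5 ZFAT summits were within 150 bp of acetylation. Next were chromosome 10, 79000000 to 79999999, with 9 and 79, and chromosome 7, 20000000 to 20999999, with 9 and 22. Chromosome 17, 25000000 to 25999999, held 8 and 36, and chromosome 12, 113000000 to 113999999, held 7 and 22. In the last of these only 1 ZFAT summit was within 150 bp of acetylation and none scored 20 or more. A window at chromosome 5, 140000000 to 140999999, tied with it on all these counts and is not among the 5. No ZFAT peak of these 5 windows had a known control background of 20 or more, but some were at the P ceiling, where it is not known.

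The strongest ZFAT peaks within 150 bp of acetylation were all at the P ceiling and all recurred in both B6 lists and in Lck-Cre ZFAT. Of all 114 floxed ZFAT peaks scoring 20 or more, 73.7% overlapped a B6 peak called against input, 60.5% one against IgG and 26.3% Lck-Cre ZFAT. The peaks named in each distance class were picked as its highest scores, so their recurrence is not a trait of the class. At chromosome 7, 20147001 to 20147920, the ZFAT fold was 311.6 in floxed and 14.4 in Lck-Cre cells, and the acetylation summit lay at -51 bp with a fold of 5.59. At chromosome 7, 134919978 to 134921457, it lay at 7 bp with an acetylation fold of 12.1. A pair of ZFAT peaks on chromosome 2, 153474730 to 153476162 and 153458164 to 153458672, had acetylation summits at -8 and -27 bp, with acetylation folds of 5.02 and 13.4 and ZFAT folds of 297.9 and 210.9. The peak at chromosome 9, 99468648 to 99469455, had a ZFAT fold of 277.6 and an acetylation summit at 6 bp (fold 15.6).

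The others of this group had ZFAT folds of 203.8 (chromosome 10, 88193951 to 88194637), 202.0 (chromosome 19, 56622775 to 56623574) and 136.4 (chromosome 6, 113256673 to 113257747). Their acetylation summits were at 46, 64 and 44 bp. Acetylation folds at these 8 peaks ran from 5.02 to 15.6, on both sides of the list median of 8.62. Of the 8 acetylation peaks, 7 stood alone, and over the whole list 312 ZFAT summits lay on lone peaks and 122 on peaks in domains. None of the 8 ZFAT peaks overlapped an Lck-Cre acetylation peak or an H3K9me3 peak, beside 5% and 4.48% of all floxed ZFAT peaks. With shares that low, the lack of overlap among 8 peaks does not set them apart.

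A group of strong ZFAT peaks had its summit beside acetylation and on no acetylation peak. The first, at chromosome 15, 68089869 to 68090767, lay between the 2 acetylation peaks of a domain, with a ZFAT fold of 155.7 and the nearest acetylation summit at -306 bp. At chromosome 9, 122930191 to 122930887, the ZFAT fold was 153.8 and the acetylation summit at 268 bp. On chromosome 19, 56622315 to 56622615, a ZFAT peak with a fold of 142.3 lay 669 bp from the acetylation summit that the neighbouring peak named above shared. The summit at chromosome 8, 59029425 to 59029716, was 525 bp from an acetylation summit with a fold of 20.3, and Lck-Cre ZFAT had no peak there.

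At chromosome 5, 124933155 to 124933630, and chromosome 6, 54987748 to 54988434, the offsets were 166 and 221 bp, with ZFAT folds of 86.8 and 48.5. The peak at chromosome 6, 113259189 to 113259472 (fold 24.3), had its acetylation summit at -2046 bp, and that at chromosome 11, 40508293 to 40508552 (fold 33.6), at -2387 bp. All 8 recurred in B6 against input, 7 against IgG and 4 in Lck-Cre ZFAT. Of all floxed ZFAT peaks scoring 20 or more, 73.7%, 60.5% and 26.3% did. Summits of strong ZFAT peaks were thus also found beside acetylation peaks and not only on them. The ZFAT peaks themselves could still cover acetylation. Those named here on chromosomes 9 and 5, and at chromosome 6, 54987748 to 54988434, spanned the nearest acetylation peak, and the one on chromosome 15 overlapped it.

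Strong ZFAT peaks were found without nearby acetylation too. The highest floxed fold of the whole list, 355.0, was at chromosome 17, 25252349 to 25253037, with the nearest acetylation summit 17817 bp away. On chromosome 2 the peaks at 90894153 to 90894458 (fold 157.7), 91550843 to 91551181 (fold 86.4) and 91550324 to 91550623 (fold 46.6) were 16025, 19643 and 20169 bp away. Folds of 45.3 and 33.9 were found on chromosome 2, 57034209 to 57034410, and chromosome 16, 57606587 to 57607133, with acetylation at 56371 and -57485 bp. The 2 others between 5 and 100 kb were at chromosome 7, 30954575 to 30954793, and chromosome 8, 86794087 to 86794317, with folds of 23.3 and 17.8. All 8 recurred in both B6 lists, and 5 in Lck-Cre ZFAT. For all floxed ZFAT peaks scoring 20 or more, the shares were 73.7% against input, 60.5% against IgG and 26.3% in Lck-Cre ZFAT. These 8 were picked as the highest scores of their distance class.

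Beyond 100 kb, peaks are named without the 6 of 17 scoring 20 or more that had a control background of 20 or more. Of all 17, 9 recurred in B6 against input and 3 in Lck-Cre ZFAT. The strongest of the remaining peaks (chromosome 6, 126889196 to 126889742) reached a fold of 18.1 and an inferred height of 91 fragments, 391279 bp from acetylation, and had a peak in both B6 lists. The next (chromosome 11, 71685854 to 71686038) reached a fold of 14.95 and 17 fragments. The other 6 had folds of 12.46 to 14.3 and 13 to 16 fragments. Of these 8 named peaks, 3 recurred in B6 against input, 1 against IgG and 0 in Lck-Cre ZFAT, and 1 overlapped H3K9me3. For all floxed ZFAT peaks scoring 20 or more, these shares were 73.7%, 60.5%, 26.3% and 8.77%.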

How the data were processed

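Peak lists of ChIP libraries from mouse thymocytes were used as deposited, in mm9. Peaks were called per library; MACS is named in the submitters' processing notes of the B6 samples. Those notes list Trimmomatic 0.22, SAMtools 0.1.18 and CASAVA 1.8.1 without their roles, and the aligner was not given in the sources used here. The authors' settings, per the file headers, were a fragment length of 150 bp, an effective genome size of 1870000000, a p threshold of 1e-05 and a padding of 5000 bp; no control is named for the floxed and Lck-Cre lists. The P score and Q score are −log10 p-values and the fold change a ratio to local background, both by the authors' caller, per the file headers; the Q score was not used.

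Nearest summits, domains and windows were computed with Python 3.11.15, NumPy 2.4.6, pandas 2.3.3 and SciPy 1.17.1 and checked on planted positions. The height in fragments is the whole number that meets fold and P score together (tolerance 0.0001), with the background it implies. The fold was read as a ratio of height to background with a fragment added to each. A background of 20 or more was called high. Shifts were fixed moves round each chromosome's span, with no random draw. Regions were named by P score, then fold, leaving out known high backgrounds (not known at the P ceiling): the 8 strongest ZFAT peaks in each of 4 classes of distance, and the 5 domains and 5 windows with most ZFAT summits. Only the first 5 windows in that order are given. Members, classes and lists were chosen with earlier results of these data known. Alternatives covered stricter P scores, high backgrounds, peak midpoints, window sizes, domain gaps and local shifts. No sequence is printed, since no mm9 genome was used here.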

Additional observations from a re-analysis of the deposited data

How the results depend on the processing

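Each choice was changed in turn. The share of near acetylation summits at a higher coordinate and the share of in-domain ZFAT summits on an acetylation peak stayed within their main 95% intervals under every alternative tried for them, as did all 10 main values without peaks at a known control background of 20 or more. No correlation changed sign. With ZFAT peaks at a P score of 10 or more, the shares within 150 bp, within 1 kb and over 100 kb were 24.2%, 32.3% and 31.9%, the median distance 25776 bp, Spearman's rho 0.315 and Pearson's r 0.384. At 20 or more they were 40.4%, 61.4%, 14.9%, 269.5 bp, 0.172 and 0.181, and the share in a domain was 13.2% and that on the strongest peak of the domain 78.6%. With acetylation peaks at 20 or more, the shares within 150 bp, within 1 kb, over 100 kb and in a domain were 15.1%, 21.3%, 42.9% and 4.07%, and the median distance was 67433 bp; fewer acetylation peaks lengthen every distance by construction. Windows of 500 kb gave rho 0.344 and r 0.394, and windows of 2 Mb 0.523 and 0.588. In windows with acetylation, r was 0.462. The wider domain gap put 11.2% of ZFAT summits in domains. As alternatives chosen after seeing the data, leaving out ZFAT peaks within 1 kb gave rho 0.315 and r 0.343, and within 5 kb 0.296 and 0.290. B6 ZFAT within 150 bp was 23.9% against IgG and 37.4% at P scores of 20 or more. For floxed ZFAT against Lck-Cre acetylation it was 6.14% at 20 or more. Shifts of 10 to 50 kb placed 1.98% of summits within 1 kb and 0.791% in domains, against 1.01% and 0.202% with the wider shifts. No paired analysis was possible because each group had 1 library. Depth limits the weak peaks most, at a median of 9 fragments per floxed ZFAT peak.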
